A study of Mus musculus with 6 samples.

Results

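The cytoplasmic ribosomal protein genes were taken as the rows of the count table whose symbol begins with Rpl or Rps, goes on with a number and ends at most in a short suffix. The rule gave 85 of 25239 rows, of which 50 name large subunit proteins, 32 name small subunit proteins and 3 name the P-stalk proteins (Rplp0, Rplp1 and Rplp2). Among them 9 are paralogs of another ribosomal protein gene, such as Rpl10l beside Rpl10. Genes whose product is a ribosomal protein but whose symbol follows another form (such as Rpsa and Fau) fell outside the rule and are given separately. RNA was sequenced from C57BL/6 mouse ovaries at E18.5, shortly before birth, in 3 libraries of genotype WT and 3 of genotype Hnrnpl-null. Hnrnpl encodes an RNA-binding protein that regulates splicing. The titles of the second group carry the letters CKO, and the labels give no allele, Cre driver or targeted cell type. Ovaries were digested to single cells with Liberase DH and DNase I, the cell type on the labels is oocyte, and no sorting step is named.

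Ribosomal proteins assemble with ribosomal RNA in the nucleolus into a small subunit, which decodes messenger RNA, and a large subunit, which forms peptide bonds. Their messenger RNAs are among the most abundant of a growing cell, and many begin with a run of pyrimidines (the 5′ terminal oligopyrimidine tract) that ties their translation to mTOR signalling. In the germ line a few autosomal paralogs of X-linked ribosomal protein genes are expressed, and Rpl10l is known for standing in for Rpl10 in male meiosis, when the X chromosome is silenced.

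The pyrimidine run was looked for around the annotated transcription start of each gene in RefSeq windows of GRCm38.p6, which has the mm10 coordinates. A run was a C followed without a break by C or T, at least 8 letters long, on the gene's own strand, between 20 bases before and 30 after the start. Of the 85 members, 64 matched a window by symbol. The 4 windows first listed were chosen to show a run in a gene that rose (Rpl15), in an abundant gene (Rpl13), in a P-stalk gene (Rplp2) and in the gene with the highest fitted ratio (Rps26), and Rps2 is shown as a gene that rose without such a run. Each window holds the 40 bases before the start and the 20 from it on, 5′ to 3′ on the gene's strand, with the run in capitals. They lie at chr14:18270967-18271026 on the minus strand (Rpl15), chr8:123102310-123102369 on the plus strand (Rpl13), chr7:141447611-141447670 on the plus strand (Rplp2), chr10:128626487-128626546 on the minus strand (Rps26) and chr17:24720023-24720082 on the plus strand (Rps2).
Rpl15: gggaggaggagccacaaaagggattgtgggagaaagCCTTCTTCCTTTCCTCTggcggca
Rpl13: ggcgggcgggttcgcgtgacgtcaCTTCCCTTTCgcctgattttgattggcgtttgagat
Rplp2: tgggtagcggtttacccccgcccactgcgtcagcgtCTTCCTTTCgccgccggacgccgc
Rps26: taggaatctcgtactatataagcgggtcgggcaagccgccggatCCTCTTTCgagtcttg
Rps2: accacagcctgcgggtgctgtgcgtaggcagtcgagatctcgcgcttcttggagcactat

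Such a run stood in 31 of the 64 windows of ribosomal protein genes (48.4%), against 15.0% of 11636 other genes tested and 14.8% of all 27025 symbols with a window. The letters CCGGAAG, the core of many ETS factor motifs, were found on either strand of the whole window of 250 bases before to 50 after the start in 37.5% of the members and in 16.7% of the other genes tested. AAGATGG, the core of the YY1 motif, was found in 14.1% against 6.88%. GGGCGG, a GC box, was found in 59.4% against 62.8%. A match shows only that the letters are present. A missing run does not show that a gene has no terminal pyrimidine tract, because shorter runs and other start sites were not searched. Of the runs printed, that of Rpl13 lies wholly before the annotated start and that of Rps26 wholly after it.

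Total counts outside Rn45s, the 45S pre-ribosomal RNA, ranged from 1757572 to 10980179 per library. The share of Rn45s reached 83.0% (WT replicate 1) and 86.1% (Hnrnpl-null replicate 3), the other 4 libraries holding 18.6% to 36.0%, and its row was left out of all totals below. Levels are in CPM, the count of a gene as a share of the library size, which was scaled with the TMM method of edgeR. The TMM factors ran from 0.786 (Hnrnpl-null replicate 3) to 1.126 (WT replicate 2). Hnrnpl itself read 388.1, 382.9 and 327.7 CPM in the WT libraries and 375.9, 391.0 and 494.1 CPM in the libraries labelled Hnrnpl-null, so its gene-level count did not separate the groups (edgeR quasi-likelihood test, adjusted p = 0.450). A count over the whole gene does not show a deletion of single exons. The direction of every difference below is that of the libraries labelled Hnrnpl-null over those labelled WT.

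Ribosomal protein genes lay slightly higher in the Hnrnpl-null libraries. Of the 81 members with enough counts to test, 7 rose and 1 fell at an edgeR adjusted p below 0.05, and 73 were not called. The 7 that rose are 8.64% of the members tested, against 2.96% of all 14895 genes tested that were called higher, and the 1 that fell is 1.23%, against 1.83% of all genes called lower. The fitted log2 ratio lay above 0 in 71 of the 81 members (87.7%), against 49.9% of all genes tested. The median log2 ratio of the members was 0.29 with quartiles of 0.18 and 0.43, a ratio of 1.22, while the median over all genes was -0.0011. Groups did not overlap in 15 members with Hnrnpl-null above WT and in 2 with Hnrnpl-null below, against 13.1% of all genes in either direction. Nothing in the labels says that the libraries came from separate animals, so each p measures the spread between these libraries, which may be technical.

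Summed over all 85 rows, the ribosomal protein genes gave 19716, 16554 and 20368 CPM in the WT libraries and 22298, 20515 and 27981 CPM in the Hnrnpl-null libraries. Each Hnrnpl-null library lay above each WT library, but Hnrnpl-null replicate 2 exceeded WT replicate 3 only narrowly. The means were 18879 ± 2040 and 23598 ± 3899 CPM (SD, n = 3 each), a ratio of 1.25 (exact permutation test, two-sided, p = 0.1, the smallest that 3 against 3 libraries allow). On plain totals without TMM factors, the same sums were 17324, 18593 and 22788 CPM in WT and 23991, 21676 and 21976 CPM in Hnrnpl-null. On that scale the groups overlapped and the ratio was 1.15 (exact permutation test, p = 0.3). In bulk RNA, fewer cells of a type and less RNA per cell cannot be told apart.

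**Figure D1:**
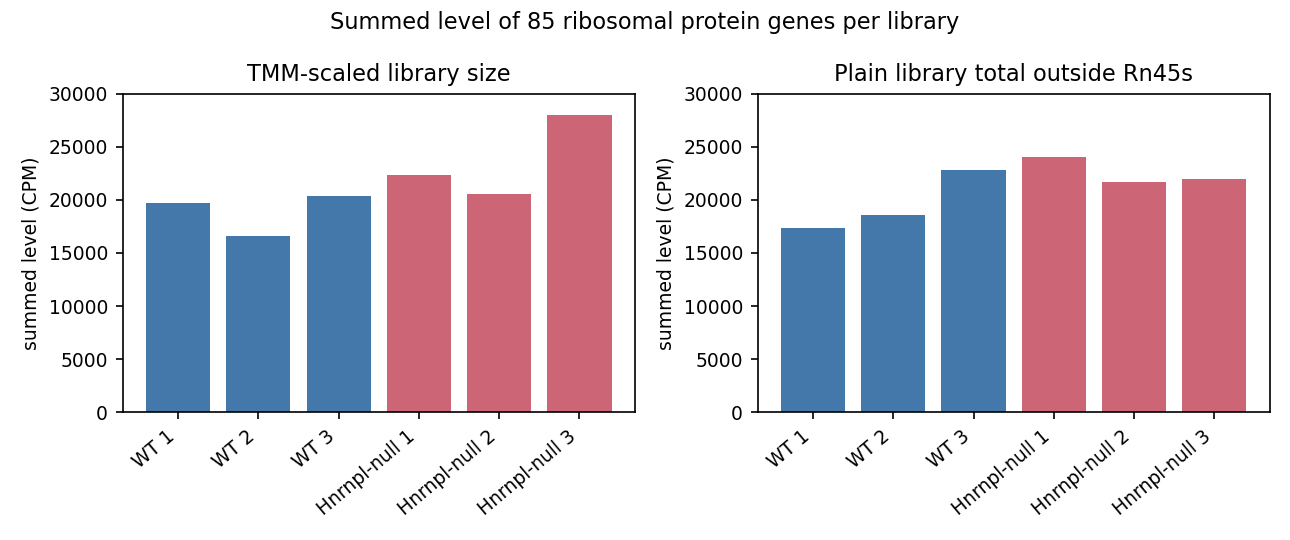
Bars give the summed level of the 85 ribosomal protein genes in each of the 6 libraries, in CPM, on TMM-scaled library sizes (left) and on plain totals outside Rn45s (right), with WT in blue and Hnrnpl-null in red. On the left all Hnrnpl-null libraries lie above the WT libraries, and on the right WT replicate 3 lies above Hnrnpl-null replicates 2 and 3.

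The 7 genes that rose belong to the large subunit (Rpl3, Rpl7, Rpl10 and Rpl15), the small subunit (Rps2 and Rps4x) and the P-stalk (Rplp0). Rps2, a small subunit protein near the entry of the messenger RNA channel, read 409.5, 379.3 and 461.0 CPM in WT and 622.7, 583.3 and 649.1 CPM in Hnrnpl-null. Its log2 ratio was 0.57 (SE 0.11, edgeR adjusted p = 0.0110), and the lowest Hnrnpl-null library lay well above the highest WT library. Rpl10, an X-linked large subunit protein added late in subunit maturation, read 365.1, 341.9 and 427.0 CPM in WT, while the Hnrnpl-null libraries gave 499.9, 627.9 and 611.4 CPM, a log2 ratio of 0.62 (SE 0.13, edgeR adjusted p = 0.0140). Its groups were also apart, and Hnrnpl-null replicate 1 was the lowest of its group. Rpl3, a large subunit protein that reaches towards the peptidyl transferase centre, read 404.1, 357.4 and 482.4 CPM in WT, while the Hnrnpl-null libraries gave 609.2, 582.9 and 623.8 CPM, a log2 ratio of 0.55 (SE 0.12, edgeR adjusted p = 0.0220). The 3 Hnrnpl-null libraries of Rpl3 agreed more closely than its WT libraries did.

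Rps4x, an X-linked small subunit protein, read 736.2, 690.0 and 780.1 CPM in WT and 978.5, 1048 and 1004 CPM in Hnrnpl-null. Its mean coefficient of variation within a group was 4.80%, the lowest among the 72 members tested that are neither paralogs nor Rps27, and its log2 ratio was 0.46 (SE 0.11, edgeR adjusted p = 0.0328). Rpl7, of the large subunit, read 600.3, 499.6 and 619.9 CPM in WT and 819.9, 729.2 and 870.8 CPM in Hnrnpl-null (log2 ratio 0.49, edgeR adjusted p = 0.0380). Rplp0, the base of the P-stalk on which the elongation factors dock, read 681.6, 716.6 and 793.2 CPM in WT and 1165, 893.9 and 1062 CPM in Hnrnpl-null (log2 ratio 0.51, edgeR adjusted p = 0.0381). Rpl15, of the large subunit, read 177.0, 158.2 and 195.4 CPM in WT and 234.2, 231.1 and 263.7 CPM in Hnrnpl-null (log2 ratio 0.46, edgeR adjusted p = 0.0414). In all 7 genes the groups were apart, and WT replicate 2 was the lowest library in each but Rplp0.

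**Figure D2:**
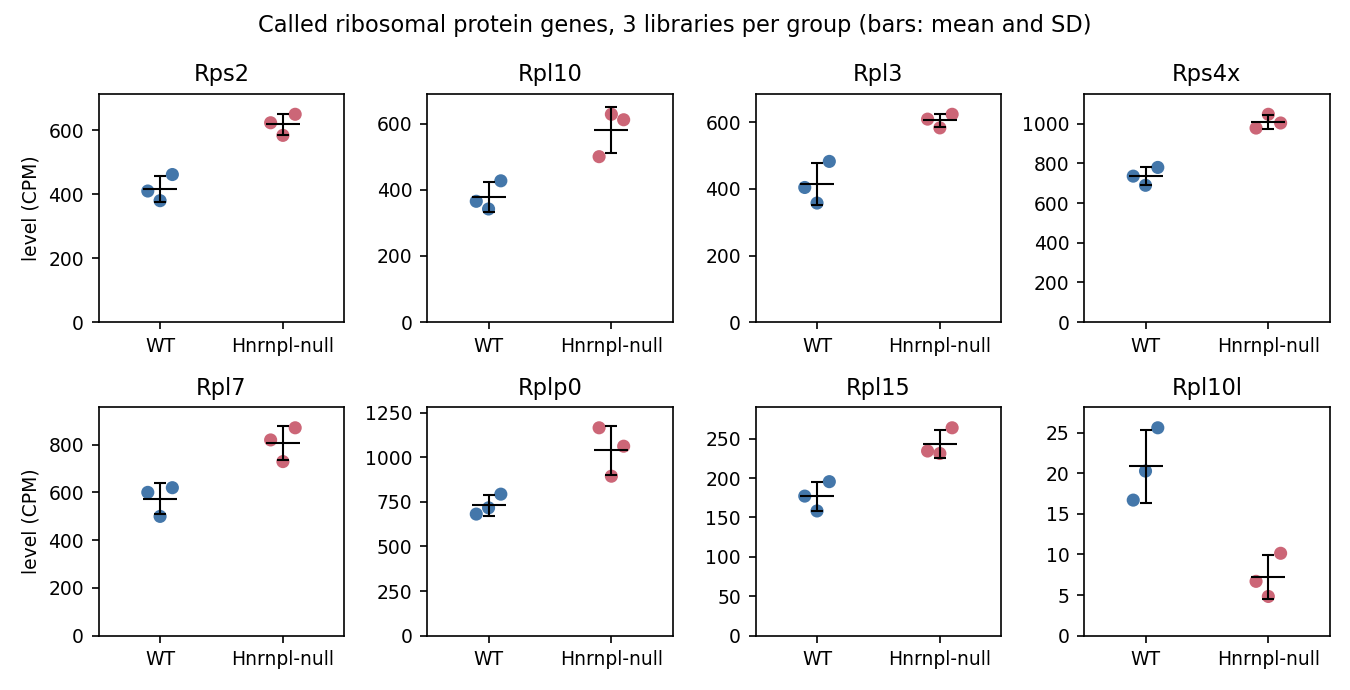
Points are the CPM of the 7 ribosomal protein genes that rose and of Rpl10l, which fell, in 3 WT and 3 Hnrnpl-null libraries, with mean and SD as bars; each vertical axis starts at 0. The groups do not overlap in any of the 8 genes, and the level of Rpl10l is far below that of the others.

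The number of genes called depended on single libraries. Without WT replicate 2, 0 members were called higher by the edgeR test, although 12 still had an unadjusted p below 0.05 in that direction, and the median log2 ratio was 0.17. Calls also fell over all genes, with 1.025% called higher in place of 2.96%. Without WT replicate 1, Hnrnpl-null replicate 1 or Hnrnpl-null replicate 2, the number of members called higher was 2, 3 and 2. The share of all genes called higher was then 1.66%, 1.88% and 1.15%. Without Hnrnpl-null replicate 3 there were 5 members called higher, at a median log2 ratio of 0.12, and 3.47% of all genes were called higher. On plain totals 0 members were called higher by edgeR, with 3 at an unadjusted p below 0.05, the median over all genes moved to -0.09 and that over the members to 0.18, so that members lay 0.26 above all genes in place of 0.29. DESeq2 and limma-voom each called 12 members higher and 1 lower. Of all genes, 0.826% were called higher on plain totals, 4.40% with DESeq2 and 5.63% with limma-voom.

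Genes that rose were found in both subunits. Without the paralogs, 4 of 40 large subunit genes rose with a median log2 ratio of 0.34, and 2 of 30 small subunit genes rose with a median of 0.29. The summed large subunit level was 1.13, 1.10 and 1.15 times the small subunit level in WT and 1.14, 1.14 and 1.20 times in Hnrnpl-null, with overlapping groups (exact permutation test, p = 0.4). Of the P-stalk genes only Rplp0 was called. Rplp1 and Rplp2, the acidic proteins that form the tip of the stalk, had log2 ratios of 0.22 (edgeR adjusted p = 0.508) and 0.20 (edgeR adjusted p = 0.487), and their groups overlapped.

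Per exonic kilobase, Rplp1 with 1075 CPM per kilobase, Rps4x with 757 and Rpl13 with 716 were among the most abundant members in WT. Of these 3 only Rps4x was called. Rpl13, a large subunit protein, read 583.0, 521.9 and 566.0 CPM in WT and 544.3, 566.3 and 765.0 CPM in Hnrnpl-null. Its groups overlapped, with Hnrnpl-null replicate 3 the highest library, and its log2 ratio was 0.16 (SE 0.14, edgeR adjusted p = 0.566).

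High fitted ratios did not always give a call. Rps26 read 64.4, 31.5 and 113.5 CPM in WT and 154.5, 68.6 and 153.6 CPM in Hnrnpl-null, a log2 ratio of 0.83 with an SE of 0.37 (edgeR adjusted p = 0.244). WT replicate 2 and Hnrnpl-null replicate 2 were the lowest of their groups. Rpl29 had a log2 ratio of 0.71 (SE 0.24, edgeR adjusted p = 0.114). Rps28, the lowest member that is no paralog at a mean of at least 5 CPM, had a log2 ratio of -0.40 (SE 0.24, edgeR adjusted p = 0.399) with overlapping groups.

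Short genes varied more between replicates. For the 72 members tested that are neither paralogs nor Rps27, the median of the mean coefficient of variation was 28.7% in the 24 with under 600 exonic bases and 16.4% in the 48 longer ones, a length limit chosen after the values were seen. All 7 genes that rose are among the 48. The coefficient fell with exonic length (Spearman rho -0.44 across the 72 genes), but length was not separated from level. Single genes went against that trend, with 39.8% for Rpl21 (1856 bases, WT mean 68.7 CPM) and 13.8% for Rps18 (524 bases, WT mean 352.0 CPM). The log2 ratio hardly followed length (Spearman rho 0.086 across these 72 genes, which share the same libraries). The medians over the 25 shorter members, Rps27 included, and the 48 longer ones were 0.27 and 0.32. Among genes that are no members, the 275 under 600 bases had a median log2 ratio of 0.23, the 3594 of 600 to 2000 bases one of 0.02, and the 10945 longer ones one of -0.01. Among genes with a WT mean of at least 300 CPM, a limit also chosen after the values were seen, 6 of 24 members rose with a median log2 ratio of 0.29, and 31 of 355 other genes rose with a median of 0.13. Groups were apart with Hnrnpl-null above WT in 10 of these 24 members (41.7%) and in 124 of the 355 other genes (34.9%). The difference between members and these other genes was not tested.

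The members shifted together in single libraries. Against each gene's own mean over the libraries, the median member lay at -0.06, -0.39 and -0.01 on the log2 scale in WT replicates 1 to 3 and at 0.12, -0.11 and 0.47 in Hnrnpl-null replicates 1 to 3. WT replicate 2 was thus the lowest library and Hnrnpl-null replicate 3 the highest, and Hnrnpl-null replicate 2 lay below WT replicates 1 and 3. Hnrnpl-null replicate 3 is also the library with the highest Rn45s share and the fewest counts outside it. The part of depth and of Rn45s content in the result was not tested, and leaving out both libraries rich in Rn45s gave 5 members called higher, 1 lower and a median log2 ratio of 0.17. Of all genes, 3.34% were called higher in that setting.

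**Figure D3:**
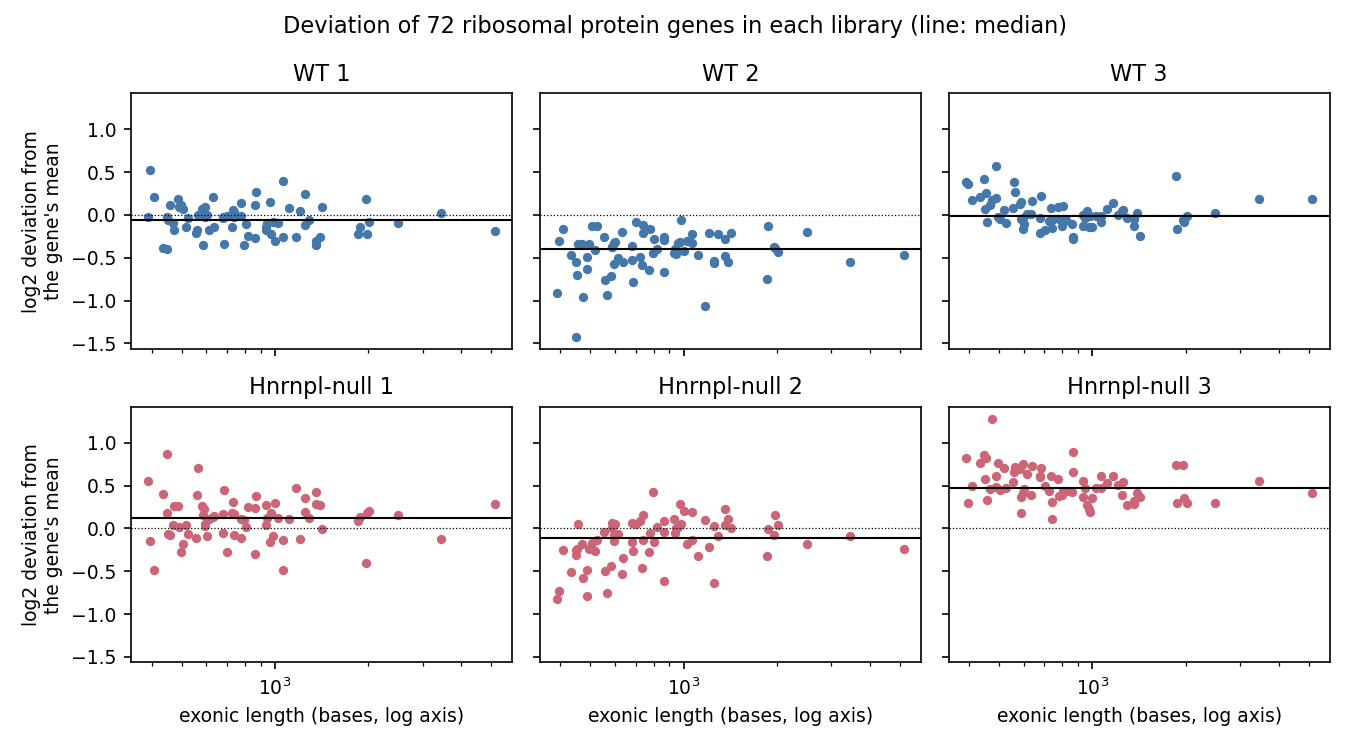
Each panel plots, for 1 library, the log2 deviation of 72 ribosomal protein genes from their own mean over the 6 libraries against exonic length (log axis), with the median as a solid line. The medians run from -0.39 in WT replicate 2 to 0.47 in Hnrnpl-null replicate 3, and the shortest genes scatter most.

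Of the 8 paralogs tested, 1 was called, in the lower direction, 3 had a log2 ratio above 0, and the median was -0.27, with a median SE of 0.30. Their difference from the other members was not tested. Rpl10l read 16.7, 20.3 and 25.6 CPM in WT and 6.7, 4.8 and 10.1 CPM in Hnrnpl-null. It fell to 31.0% of its WT level, with a log2 ratio of -1.69 (SE 0.32, edgeR adjusted p = 0.00824) and groups that were apart. Its counts were 56, 216 and 164 in WT and 70, 56 and 14 in Hnrnpl-null. The call was lost without WT replicate 3 (log2 ratio -1.50, edgeR adjusted p = 0.0588) and without Hnrnpl-null replicate 2 (log2 ratio -1.44, edgeR adjusted p = 0.0603). Rpl39l, a paralog of the X-linked Rpl39 that is known from the testis, read 5.4, 5.8 and 9.4 CPM in WT and 2.3, 3.3 and 1.4 CPM in Hnrnpl-null, a log2 ratio of -1.42 with an SE of 0.50 (edgeR adjusted p = 0.133). Its groups were apart, on counts of 18, 62 and 60 against 24, 38 and 2.

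Rpl10l lies at chr12:66283379-66284401 on the minus strand and Rpl10 at chrX:74270816-74273135 on the plus strand, and Rpl39l lies at chr16:10170228-10174911 on the plus strand and Rpl39 at chrX:37082518-37085222 on the minus strand (mm10). The first 90 coding bases of both pairs are shown because they tell how far reads can separate a paralog from its parent. They come from GENCODE M21 on GRCm38, 5′ to 3′, with the bases that differ within the pair in capitals.
Rpl10l: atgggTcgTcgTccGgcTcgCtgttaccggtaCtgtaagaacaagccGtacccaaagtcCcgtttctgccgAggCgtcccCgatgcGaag
Rpl10: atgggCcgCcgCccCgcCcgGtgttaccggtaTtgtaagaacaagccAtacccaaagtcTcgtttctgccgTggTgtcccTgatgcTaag
Rpl39l: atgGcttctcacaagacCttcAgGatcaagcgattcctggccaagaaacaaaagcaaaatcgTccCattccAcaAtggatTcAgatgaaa
Rpl39: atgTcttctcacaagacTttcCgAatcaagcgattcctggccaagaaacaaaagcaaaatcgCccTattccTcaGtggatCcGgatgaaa

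The pairs differ at 13 and 10 of these positions. Over the whole coding sequence Rpl10l and Rpl10 are identical at 84.7% of 642 bases, and Rpl39l and Rpl39 at 85.0% of 153 bases. Of all 50-base words of the Rpl10l transcript, 7.60% occur in the transcripts of another gene, and of those of Rpl39l 0.0%, so few words of either are shared. Rpl10l stood at 4.57%, 5.93% and 5.99% of the level of Rpl10 in WT and at 1.34%, 0.769% and 1.66% in Hnrnpl-null. Rpl39l stood at 8.14%, 9.37% and 9.40% of Rpl39 in WT and at 2.02%, 5.40% and 0.990% in Hnrnpl-null. Both shares were lower in each Hnrnpl-null library than in any WT library (exact permutation test, p = 0.1 each, the smallest possible). Each share also moves with its parent gene. Rpl10 rose, and Rpl39 had a log2 ratio of 0.45 without a call (edgeR adjusted p = 0.378).

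The other paralogs showed smaller differences. Rps4l, a paralog of Rps4x, read 50.7, 47.1 and 48.7 CPM in WT and 34.0, 36.9 and 53.6 CPM in Hnrnpl-null. It was not called (log2 ratio -0.29, SE 0.18, edgeR adjusted p = 0.432). Its share of Rps4x was 6.88%, 6.83% and 6.24% in WT and 3.48%, 3.52% and 5.34% in Hnrnpl-null, with groups apart (exact permutation test, p = 0.1). The share also moves with Rps4x, which rose. The shares of Rpl3l in Rpl3, Rpl7l1 in Rpl7, Rpl22l1 in Rpl22 and Rpl36al in Rpl36a overlapped between groups (exact permutation test, p from 0.3 to 0.8). Rpl36a is X-linked like Rpl10, Rpl39 and Rps4x, and the autosomal Rpl36al stood at a mean of 17.6% of it in WT and 15.5% in Hnrnpl-null. Over the 7 shares compared, no p could fall below 0.1, before any adjustment. Rpl22l1 and Rpl22 had log2 ratios of 0.19 and 0.18, Rpl7l1 one of 0.10, Rps27l one of 0.10, Rpl36al one of -0.25, Rpl36a one of -0.15 and Rpl3l, at 1.79 CPM in WT, one of -0.28, and none was called (edgeR adjusted p from 0.513 to 0.909).

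**Figure D4:**
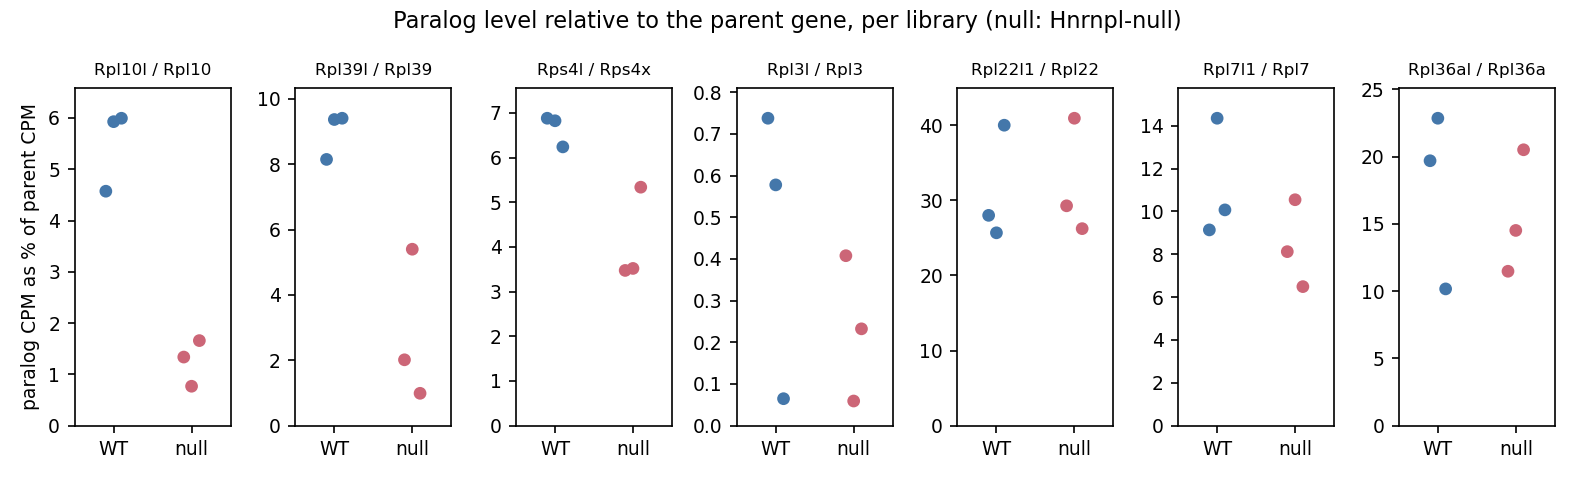
Points give the level of 7 paralogs as a percent of the level of the parent gene in each library, 3 WT (blue) and 3 Hnrnpl-null (red); each panel has its own axis from 0. The groups are apart for Rpl10l, Rpl39l and Rps4l and overlap for the other 4.

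Genes of meiotic germ cells, like Rpl10l, were lower in the Hnrnpl-null libraries, and a link between them was not tested. All 10 germ cell markers tested fell, from Nobox, an oocyte transcription factor, at 10.6% of its WT level to Dazl, a germ cell RNA-binding protein, at 56.7%, and Rpl10l at 31.0% lay within that range. Their summed level was 1040, 968.3 and 1142 CPM in WT and 498.1, 415.5 and 439.0 CPM in Hnrnpl-null. Markers of myeloid cells and blood progenitors moved the other way. Of 12 tested, 10 rose, led by Mpo, the myeloperoxidase of granules, and the summed level was 343.1, 357.9 and 355.5 CPM in WT and 2159, 1741 and 1924 CPM in Hnrnpl-null. Of 8 stromal markers 3 rose (summed level 9606 to 10321 CPM against 14677 to 16173 CPM). Col1a1 and Col1a2 made up most of that sum, with WT means of 6320 and 2783 CPM and Hnrnpl-null means of 10235 and 4098 CPM. In the stromal list 6 had a log2 ratio above 0 and the median was 0.37, while Tcf21 and Nr2f2 had log2 ratios of -0.15 and -0.03. Of 4 surface epithelium markers 3 rose (482.7 to 592.2 CPM against 678.8 to 857.9 CPM). Of 10 pregranulosa markers only Kitl rose, from a mean of 177.5 CPM in WT to 397.2 CPM in Hnrnpl-null. The summed pregranulosa level, Kitl included, was 1109 to 1232 CPM against 1268 to 1395 CPM. Only 5 of these 10 had a log2 ratio above 0, and their median was -0.03. The labelled oocytes were thus present by their markers, and stromal genes were abundant beside them, with Col1a1, a fibrillar collagen, at 6320 CPM in WT. The 7 endothelial markers had a median log2 ratio of -0.63, and the 4 at an unadjusted p below 0.05 were Egfl7, Cdh5 and Tie1 with ratios below 0 and Kdr with a log2 ratio of 0.36. In addition, 1 of 8 macrophage and 1 of 3 erythroid markers rose. Whether cell makeup differed between the groups, and its part in the differences among ribosomal protein genes, was not tested.

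Some rows of the table carry almost no counts. Rpl26 had a count of 0 in all 6 libraries, which allows up to 6 counts (3 read pairs) over a group by counting error alone. Rpl30 had counts of 0, 0 and 1 in WT and 1, 0 and 2 in Hnrnpl-null, and Rpl34 had 4, 10 and 2 against 12, 4 and 2. Rps27 had 2, 22 and 23 against 14, 8 and 0, a log2 ratio of -1.31 with an SE of 0.85 (edgeR adjusted p = 0.450). In these 4 genes over 50% of the exonic bases are also exons of another row on the same strand. The share is 95.8% for Rpl26 (with Gm15772), 76.0% for Rpl30 (with Gm12191), 60.0% for Rps27 (with Rps27rt) and 59.9% for Rpl34 (with Rpl34-ps1), and no other member passes 50%. Without a known rule for such exons their counts cannot be read as levels. Rpl5 follows with 47.7%, shared with Dipk1a on the opposite strand. Rpl32l, the other member left out of the test, had 0, 6 and 8 counts in WT and 2, 16 and 2 in Hnrnpl-null.

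Processed pseudogenes bear on the other rows. Over 76 members that are no paralogs, a median of 59.9% of the 50-base words of the transcript occur in transcripts of other genes, with a range of 0.0% to 98.6% and a median of 8.5 annotated pseudogenes that share a word. Among the genes that rose, the share was 92.1% for Rpl10, 85.6% for Rpl3, 72.2% for Rps4x, 71.3% for Rps2, 67.9% for Rpl15, 53.3% for Rpl7 and 41.8% for Rplp0. How reads that fit several places were counted is not given in the sources used here, so the levels of these genes are uncertain. Across members the share correlated weakly with the WT level per kilobase (Spearman rho -0.10, 76 genes) and the log2 ratio (Spearman rho 0.18, 73 genes). Split by share, however, the 45 members with 50% or more of their words shared had a median WT level of 198.6 CPM per kilobase. The 31 members with less had a median of 333.1 CPM per kilobase, a difference that was not tested. Paralogs left out, the median log2 ratio was 0.27 in 27 members with such a pyrimidine run around the start and 0.37 in 27 without. Among them, 1 with a run and 4 without were called higher.

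Genes that share the ribosome or its regulation with the members were read from lists. Among the ribosomal genes named in another form, Rpsa, a small subunit protein first known as a laminin receptor, rose from 628.9, 584.2 and 674.3 CPM in WT to 999.5, 875.4 and 950.5 CPM in Hnrnpl-null (log2 ratio 0.58, SE 0.11, edgeR adjusted p = 0.0110). Rack1 and Fau had log2 ratios of 0.41 and 0.25 and were not called (edgeR adjusted p = 0.0906 and 0.379). Of 7 elongation factors 2 rose, Eef1a1, which carries aminoacyl-tRNA to the ribosome (log2 ratio 0.45, edgeR adjusted p = 0.0285), and Eif5a, which relieves stalled ribosomes (log2 ratio 0.61, edgeR adjusted p = 0.00620), and the median of the list was 0.33. Of 20 other transcripts known for a terminal pyrimidine tract 3 rose, among them Eef1a1 and Pabpc1, the poly(A)-binding protein (log2 ratio 0.49, edgeR adjusted p = 0.0277), all 20 had a log2 ratio above 0 and the median was 0.26. Of 35 initiation factors 3 rose with a list median of 0.09, and Pabpc1 is 1 of these as well.

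Lists for the ribosome of mitochondria, for making ribosomes and for charging tRNAs had few or no called genes, with medians that differed between lists. Of 78 mitochondrial ribosomal protein genes, edgeR, DESeq2 and limma-voom each called 0, 1 had an unadjusted edgeR p below 0.05, 33 had a log2 ratio above 0 and the median was -0.02. Of 16 genes for RNA polymerase I and its factors 0 were called by any of the 3 tools, 2 had an unadjusted p below 0.05 and the median was -0.02. Of 56 ribosome biogenesis factors 1 rose, Ddx21, a nucleolar RNA helicase (log2 ratio 0.55, edgeR adjusted p = 0.0226), and 1 fell, Mdn1, an ATPase that remodels the pre-60S particle (log2 ratio -0.56, edgeR adjusted p = 0.0302), with a median of 0.07. Of 13 snoRNA host genes 0 were called by any of the 3 tools, 2 had an unadjusted p below 0.05 and the median was 0.37, with a median SE of 0.42. Of 20 cytoplasmic aminoacyl-tRNA synthetases edgeR called 0, DESeq2 1 and limma-voom 2, 5 had an unadjusted edgeR p below 0.05, and the median was 0.16. The difference between the members and any of these lists was not tested.

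**Figure D5:**
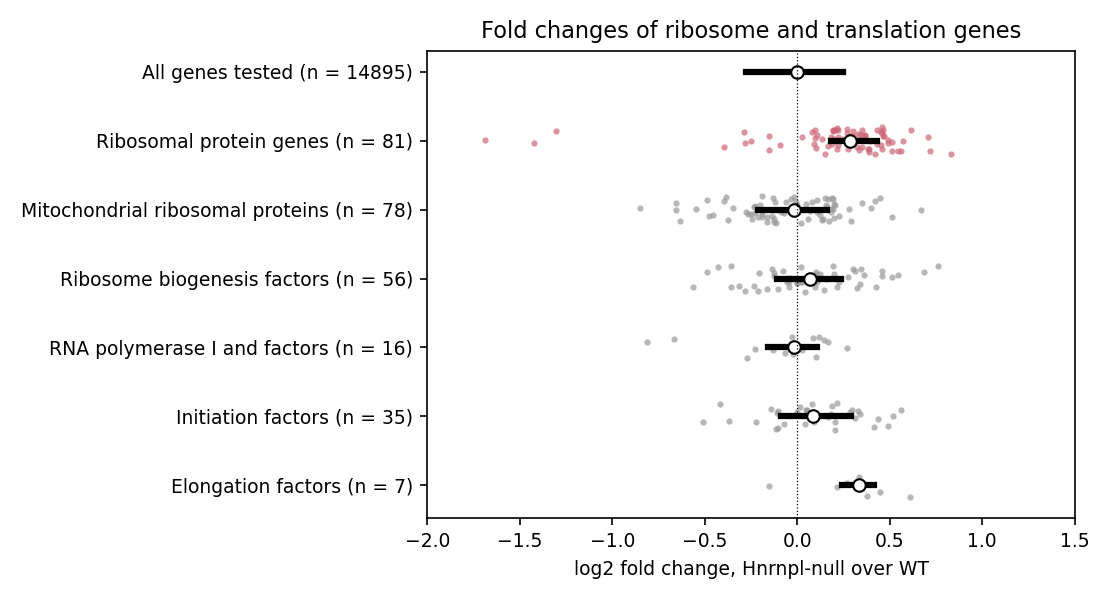
Each row gives the fitted log2 fold changes of a gene list (points, not drawn for all genes), with the median as an open circle and the range between the quartiles as a bar. The median lies at 0.29 for the ribosomal protein genes, at 0.33 for the elongation factors, and at -0.02, 0.07, -0.02 and 0.09 for the mitochondrial ribosomal proteins, biogenesis factors, RNA polymerase I genes and initiation factors; the other lists are not drawn. The 3 lowest ribosomal protein genes are Rpl10l, Rpl39l and Rps27.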

How the data were processed

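The authors deposited 1 table of raw read counts per gene with 1 column per library, in the layout of featureCounts per the file headers, which also give exon coordinates and exonic length. The submitters' processing notes name HISAT2 2.2.1, STAR 2.7.11a, mm10 as the build and featureCounts 2.0.6. The sources used here do not give annotation, strand setting or the handling of reads with several placements. Counts of 1 to 20 were even in 93.4% to 98.4% of cases per library, so a read pair appears to give 2 counts. The table holds 0 columns of other samples.

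Rn45s was left out, and the quasi-likelihood test of edgeR 4.0.16 was run under R 4.3.3 (filterByExpr, TMM, glmQLFit, glmQLFTest, two-sided, genotype as the only term, all 6 libraries), with Benjamini-Hochberg adjustment over the 14895 genes that passed the filter and a threshold of 0.05. The test was tried on simulated counts. Sums and shares were compared with exact permutation tests over libraries. DESeq2 1.42.0, limma-voom (limma 3.58.1), other scalings and filters, and libraries left out were alternatives. Replicates of a group differed by more than counting noise (lowest chi-square over its degrees of freedom, 5.466).

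Members and gene lists were chosen with earlier results of these data known. Genes named are called members, the 5 most abundant per kilobase, the 3 highest and 3 lowest ratios at a mean of at least 5 CPM, the P-stalk genes, paralogs with their parents, and up to 2 called genes of a related list in each direction. Other names were chosen after their values were seen, and some genes that the rule would name are not reported here.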

Additional observations from a re-analysis of the deposited data

How the results depend on the processing

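Of the 85 rows, 4 could not be tested, and 3 libraries per group leave changes under about the replicate spread unresolved, most of all in short genes and in paralogs with few counts. The number of ribosomal protein genes called higher, 7, became 4 with Rn45s kept in the totals, 0 on plain totals (all genes called 255 in place of 714), 4 with upper-quartile scaling, 12 with DESeq2 (all genes 1108), 12 with limma-voom (all genes 1369), 20 without a filter on low counts (all genes 1211) and 0 at an adjusted p below 0.01 (all genes 243). At these 0 counts, 3 members on plain totals and 25 at the stricter threshold had an unadjusted p below 0.05. With Rn45s kept and with upper-quartile scaling, 2.67% and 2.54% of all genes were called higher. Leaving out 1 library at a time gave 0 to 5 members called higher, 0 to 1 called lower and 259 to 880 genes called in all. The cause was not tested, beyond fewer libraries and a stricter limit by construction. The median log2 ratio of the members stayed above 0 under all alternatives run, from 0.12 without Hnrnpl-null replicate 3 to 0.42 without Hnrnpl-null replicate 2, and the ratio of the summed level from 1.14 to 1.33.

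Deviations from the group mean of libraries with the same replicate number correlated at -0.16, 0.15 and -0.10 over 12200 genes. The highest correlation across groups was 0.20, between WT replicate 1 and Hnrnpl-null replicate 3. Deviations from a mean of 3 libraries sum to 0, so these values can neither show nor exclude a pairing by replicate number. With the replicate block 8 members were called higher and 1 lower, the median was 0.28 and 488 genes were called in all. Only 4 of those 8 are among the 7 of the report: Rps4x (edgeR adjusted p = 0.0712), Rplp0 (0.0635) and Rpl15 (0.0581) lost their calls, and 4 others gained one, among them Rps26 (log2 ratio 0.94, adjusted p = 0.00709) and Rpl29 (log2 ratio 0.80, adjusted p = 0.0163). Across settings the log2 ratio of up to 13 of the members tested changed sign (13 without Hnrnpl-null replicate 3, 8 without both libraries rich in Rn45s, 6 without WT replicate 2), and that of 0 of the 8 called ones did. Among the genes named in the report the sign changes were these. Rps27l turned to -0.054 with limma-voom, -0.027 without WT replicate 2, -0.14 without Hnrnpl-null replicate 3 and -0.19 without both libraries rich in Rn45s, and reached 0.305 when 1 library was left out. Rpl3l turned to 0.19 without WT replicate 1, 0.30 without Hnrnpl-null replicate 2 and 0.17 without both libraries rich in Rn45s, with -1.50 as its lowest value. Rpl22l1 ranged from -0.0004 without WT replicate 2 to 0.49, and Rpl36a turned to 0.16 without WT replicate 3. Without Hnrnpl-null replicate 2, Rpl36a turned to 0.17, Rpl7l1 to -0.024 and Rpl36al to 0.13, where leaving out another library gave down to -0.44 for Rpl36a, up to 0.20 for Rpl7l1 and down to -0.78 for Rpl36al.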

Other observations

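Rps26, Rps29 and Rps21, all short genes, were each lowest in WT replicate 2 among the WT libraries and lowest in Hnrnpl-null replicate 2 among the Hnrnpl-null libraries. Rps29 read 56.6, 30.6 and 75.2 CPM in WT and 84.5, 32.4 and 101.4 CPM in Hnrnpl-null. Rps21 read 78.1, 41.1 and 94.3 CPM in WT and 128.1, 46.6 and 129.0 CPM in Hnrnpl-null. These 3 genes were set side by side after their values were seen. The order is not particular to short genes. The median log2 deviation of the 48 longer members was also lowest within its group in WT replicate 2 (-0.39) and Hnrnpl-null replicate 2 (-0.02).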
